A study of Mus musculus with 38 samples.

Results

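Loss of the lamins in naive mouse embryonic stem cells was described from 6 of the 38 samples of the series, namely 3 LAP2B libraries of lamin triple-knockout (TKO) cells and 3 LAP2B libraries of wild-type (WT) cells. They were chosen by their labels: naive mES cells, the LAP2B antibody and 1 of these genotypes. The study set TKO cells, cells without the lamin B receptor (LBR) and cells without both beside WT, as naive cells and as epiblast-like cells (EpiLCs). Both groups used here were grown without serum or feeder cells in 2i + LIF medium, which holds the inhibitors CHIR-99021 and PD0325901 and the cytokine LIF, and were collected at 48 hours with 200000 cells per replicate. The TKO cells lack every lamin isoform and are a single line, and WT is a line from a littermate. Per the study's methods, the TKO line carries a trisomy of chromosome 8 and has lost the Y chromosome in part of its cells, while WT cells were mostly of normal karyotype, with Y loss or trisomies of chromosomes 6 and 8 in part of them. The labels do not say that the 3 libraries of a group came from separate cultures, so p-values measure the spread between libraries. CUT&RUN measures DNA, so the libraries could not be checked for lamin transcripts or stem cell markers.

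The nuclear lamina is a meshwork of A-type and B-type lamins beneath the inner nuclear membrane. Large stretches of gene-poor, AT-rich and mostly silent chromatin contact it, and these are called lamina-associated domains (LADs). LAP2B, made by the gene Tmpo, is a membrane protein that binds lamins and chromatin. In CUT&RUN, a nuclease tethered to an antibody against such a protein cuts out the DNA near it, so the reads map chromatin close to the nuclear membrane. Transposable elements (TEs) are divided unevenly over this map, with LINEs common in AT-rich LADs and SINEs common in gene-rich chromatin.

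To show the kind of sequence upstream of genes over which LAP2B coverage rose or fell, the 250 bases before 4 genes are printed. They run 5′ to 3′ on the gene's strand, with every CG dinucleotide in capitals. LAP2B was measured over genes, and coverage of the upstream stretches by themselves was not measured. Adamtsl4 and Pkn3 had the largest relative rises, and Pramel33 and Klrc2 the largest relative falls, among protein-coding genes of at least 10 bins with IGG per bin of at least 0.5 of the median. This ranking took at most 1 gene per family and per 1 Mb. The stretches were read from GRCm39 at chr3:95595232-95595481 (minus strand), chr2:29967446-29967695 (plus strand), chr5:93688060-93688309 (minus strand) and chr6:129637653-129637902 (minus strand).
Adamtsl4: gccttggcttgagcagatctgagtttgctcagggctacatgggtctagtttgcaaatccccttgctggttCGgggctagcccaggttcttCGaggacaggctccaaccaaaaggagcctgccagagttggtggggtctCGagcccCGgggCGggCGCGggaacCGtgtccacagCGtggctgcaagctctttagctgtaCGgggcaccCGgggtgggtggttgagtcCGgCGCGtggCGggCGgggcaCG
Pkn3: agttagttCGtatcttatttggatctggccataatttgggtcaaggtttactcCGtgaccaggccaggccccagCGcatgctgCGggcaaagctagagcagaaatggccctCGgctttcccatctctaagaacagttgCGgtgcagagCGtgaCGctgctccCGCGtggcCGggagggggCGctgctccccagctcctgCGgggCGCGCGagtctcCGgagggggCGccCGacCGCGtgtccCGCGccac
Pramel33: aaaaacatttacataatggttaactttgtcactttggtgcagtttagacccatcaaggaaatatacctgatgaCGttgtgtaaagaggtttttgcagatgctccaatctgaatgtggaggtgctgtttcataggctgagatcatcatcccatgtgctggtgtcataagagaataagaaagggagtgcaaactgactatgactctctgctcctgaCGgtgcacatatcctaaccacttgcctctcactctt
Klrc2: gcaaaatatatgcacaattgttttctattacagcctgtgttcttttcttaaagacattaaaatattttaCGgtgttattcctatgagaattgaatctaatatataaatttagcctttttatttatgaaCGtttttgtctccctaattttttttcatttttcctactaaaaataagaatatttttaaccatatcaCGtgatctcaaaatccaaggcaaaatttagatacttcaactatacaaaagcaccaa
The 2 upstream stretches of the rising genes hold 17 and 23 CG dinucleotides, and those of the falling genes hold 2 and 3. Over all 20848 protein-coding genes tested the median was 6, against 9 for the 7752 called higher and 3 for the 5862 called lower on the relative scale explained below. No CG was found upstream of 15.1% of the genes called lower, 2.21% of those called higher and 7.7% of all of them. The same order held among the genes with most LMNB1 (group 4 of 4 equal groups, class 10 of 10 having the most), where the 202 genes called higher had a median of 10 and the 2917 called lower a median of 2.

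Less LAP2B signal was recovered from TKO than from WT naive cells once libraries were scaled by their yeast spike-in. The mean deposited signal per gene, a spike-in scaled RPKM summed over the 1 kb bins that a gene touches, was 10.7, 16.1 and 11.7 in the 3 WT libraries. It was 5.37, 8.45 and 6.13 in the 3 TKO libraries. Every TKO library lay below every WT library, and the ratio of the means was 0.517. On a log2 scale the level differed by −0.96 (WT 3.66 ± 0.31, TKO 2.71 ± 0.34, SD, n = 3). The two-sided exact permutation test gave p = 0.1, the smallest that 3 libraries against 3 allow. The libraries held 12608484 to 28566810 reads over genes and 40 to 76 reads at the median gene. Within each genotype the library with the fewest reads, replicate 2 in both, had the highest level. RPKM divides by the reads of a library, so sequencing depth also enters this value. When reads themselves were multiplied by the spike-in factor, the level differed by −1.18. Sequencing depth, fewer nuclei in the tube, less DNA released per nucleus and a difference in the added yeast DNA cannot be told apart in this value. On this spike-in scale, 33241 of the 70381 genes tested were called lower in TKO cells and 1672 higher (limma, adjusted p under 0.05), which is 47.2% and 2.38% of genes and 49.6% in all. The count called higher was 655 without TKO replicate 2 and 791 with only the 6 naive libraries in the model. It was 892 when reads themselves were multiplied by the spike-in factor, so it is less certain than the count called lower.

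The relative scale expresses every gene against the median gene of the same library, so that differences in total level drop out. Here 15291 genes (21.7% of those tested) were called higher in TKO cells and 19682 (28.0%) lower by limma, 49.7% in all, and the TKO libraries did not overlap the WT libraries at 51.1% of genes. The median difference over all genes was −0.10 on the relative scale and −0.62 on the spike-in scale. When reads themselves were multiplied by the spike-in factor, the latter was −0.78, so the sign of spike-in medians near 0 is uncertain. On the relative scale, dividing each library by its mean instead of its median raised the median difference to 0.18. It turned the split into 23683 genes higher and 10489 lower. A direction on the relative scale is therefore a direction against the library's median gene. Pairs of libraries of the same genotype had rank correlations over genes of 0.945 to 0.969, while the 9 pairs of a WT with a TKO library had 0.862 to 0.921.

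LAP2B coverage of TKO cells was more even across lamina-bound and lamina-free genes. Genes were ranked by WT naive LMNB1, a B-type lamin mapped in separate libraries, per 1 kb bin and parted into 10 classes. The median relative difference was 0.36 in class 1 (least LMNB1) and 0.40 in class 2, passed through −0.02 in class 5, and reached −0.62 in class 9 and −0.64 in class 10. Class 2 held 3214 of 7031 genes called higher and 307 called lower, while class 10 held 293 of 7032 called higher and 3915 called lower. Classes 5 and 6 changed sign when libraries were divided by their mean. On the spike-in scale every class of this ranking had a median under 0, from −0.13 in class 2 to −1.17 in class 10. Genes were also parted into 4 equal groups by LMNB1, and the log2 ratio of group 4 (most) to group 1 (least) was 1.594, 1.996 and 1.441 in the WT libraries and 0.794, 0.497 and 0.834 in the TKO libraries. The groups did not overlap and the difference was −0.97 (exact permutation test, two-sided, p = 0.1, the smallest possible; adjusted over 4 measures, 0.1). The LMNB1 and IGG libraries used for ranking are of WT cells only. With genes ranked by the ratio of LMNB1 to IGG, the class medians ran from 0.63 to −0.76. In that ranking class 1 had a spike-in median of 0.11, with 707 genes called higher and 245 lower, so the sign of its spike-in median depends on the ranking.

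**Figure D1:**
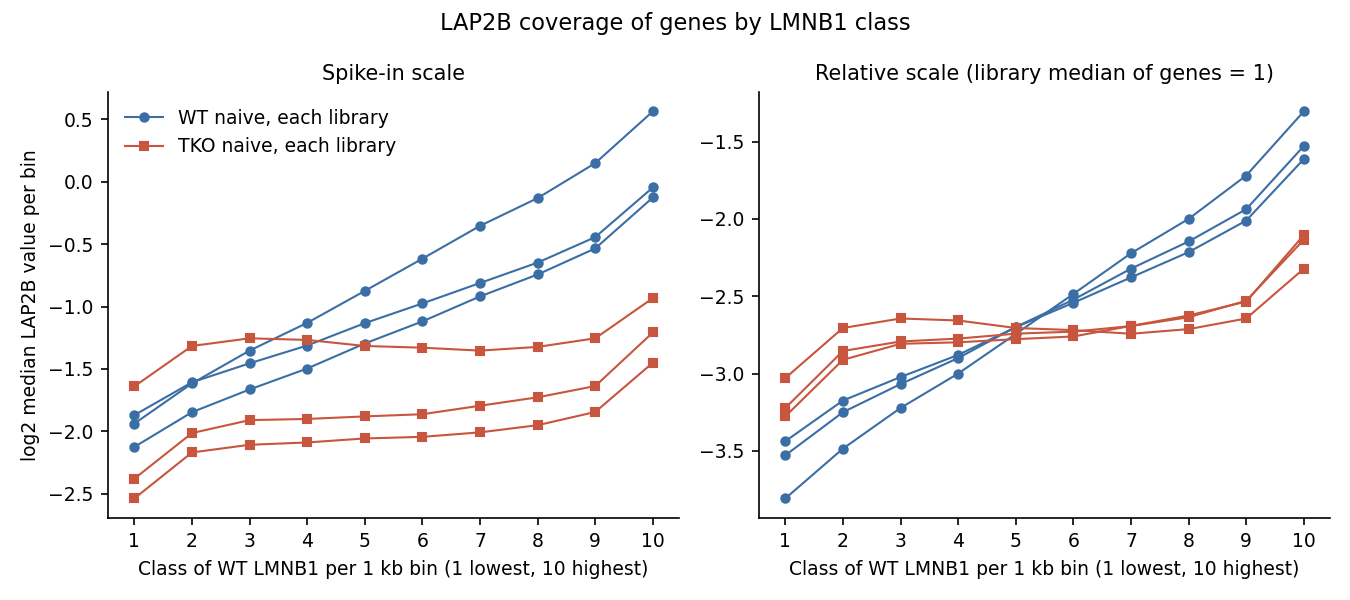
Log2 median LAP2B value per 1 kb bin (y axis) in 10 classes of genes by WT naive LMNB1 per bin (x axis), on the spike-in scale (left) and the relative scale (right). Each line is 1 library. On the relative scale WT replicate 1 climbs from −3.53 in class 1 to −1.53 in class 10, and TKO replicate 1 from −3.22 to −2.13.

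Base composition moved with this pattern. Over 10 classes of GC content the median relative difference rose from −0.71 in the most AT-rich genes to 0.53 in the most GC-rich, and the most GC-rich class was the only 1 with a spike-in median above 0 (0.04, with 666 genes called higher and 875 lower). GC classes 4, 5 and 6 changed sign when libraries were divided by their mean. The log2 ratio of the GC-rich to the AT-rich group, of 4 equal groups, was −0.177, −0.466 and −0.128 in WT and 0.591, 0.854 and 0.657 in TKO libraries, a difference of 0.96 with no overlap (exact permutation p = 0.1). LMNB1 and GC content each ordered the genes within classes of the other. In LMNB1 group 1 the median relative difference was −0.15, 0.15, 0.34 and 0.62 from the lowest to the highest GC group. The −0.15 rests on 1889 genes. LMNB1 group 1 held 854 of the 912 Y chromosome genes tested, which had a median GC content of 40.2% and a median difference of −0.46 there. How much these Y genes lower the −0.15 was not tested. In LMNB1 group 4 it was −0.79, −0.55, −0.41 and −0.19. Whether GC content affects the recovery of fragments was not tested.

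The longest genes were mostly called lower. The 639 genes that touch over 300 bins had a median relative difference of −0.77, with 545 called lower and 20 higher, and of −1.40 on the spike-in scale, with 608 called lower and 0 higher. The median was 0.09 for the 8992 genes of 11 to 20 bins and −0.10 for the 8223 genes of 1 bin, and the latter changed sign when libraries were divided by their mean. Among biotypes, protein-coding genes had a median of 0.11 (7752 called higher and 5862 lower of 20848), and miRNA genes one of 0.11 (290 higher and 177 lower of 1607, or 18.0% and 11%, both below the 21.7% and 28.0% of all genes). Long non-coding RNA genes had a median of −0.11, which changed sign with division by the mean. Unprocessed pseudogenes, which are mostly relics of duplicated genes, had a median of −0.50 (34 higher and 475 lower of 1244), and processed pseudogenes one of −0.32 (281 higher and 1795 lower of 7336). The shares called lower were 38.2% and 24.5%, the latter below the 28.0% of all genes, and the shares called higher were 2.73% and 3.83%, both below 21.7%. Variable segments of immunoglobulin genes had a median of −0.56 (0 higher and 80 lower of 206) and those of T cell receptor genes one of −0.51 (0 higher and 46 lower of 131).

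Of 15226 protein-coding genes that touch at least 10 bins, 5751 (37.8%) were called higher and 4567 (30.0%) lower on the relative scale. Values in this and the next paragraph are LAP2B over the gene with the library median gene set to 1. Adamtsl4, which encodes a secreted matrix protein (chr3:95583509-95595231), had 1.32, 1.46 and 1.26 in WT and 5.69, 6.3 and 4.95 in TKO libraries. The TKO libraries were close to each other and far above WT (log2 difference 1.98, SE 0.15, limma adjusted p = 3.32e-15). Pkn3, a protein kinase gene (chr2:29967696-29981035), had 1.66, 0.964 and 0.954 in WT and 4.95, 4.0 and 4.32 in TKO libraries (log2 difference 1.85). Efna3, an ephrin ligand of Eph receptors, had 0.9, 0.821 and 0.554 against 3.11, 2.46 and 3.06 (1.81). Slc6a8, the creatine transporter gene on the X chromosome, had 0.478, 0.589 and 0.831 against 2.3, 2.24 and 2.67 (1.80). All 4 were higher in each TKO library, which the rule that chose them required. Midn, whose product hands proteins to the proteasome, rose by 1.77, Nhsl3 by 1.70, Prrg2, a membrane protein modified with vitamin K, by 1.69 and Tbrg4, a regulator of mitochondrial RNA, by 1.69. Fahd1, a mitochondrial enzyme gene, and Yipf2, a Golgi membrane protein gene, rose by 1.97 and 1.72. IGG per bin was low at these last 2 genes, 0.29 and 0.194 of the median, so no LMNB1 class is given for them. It was 1.23, 1.25, 1.61, 1.78, 1.64 and 1.4 of the median at Adamtsl4, Pkn3, Efna3, Midn, Nhsl3 and Prrg2. At Slc6a8 and Tbrg4 it was 0.736 and 0.945. How much background adds to these rises was not tested. Adamtsl4, Pkn3, Efna3, Slc6a8 and Fahd1 also had the largest rises on the spike-in scale, at 1.38, 1.25, 1.23, 1.22 and 1.5 (limma adjusted p at most 0.000186), so their coverage rose although the total fell.

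The genes with the largest falls were chosen in the same way. Pramel33, one of the Prame-like genes known from germ cells and early embryos (chr5:93629688-93688059), had 12.7, 10.5 and 12.6 in WT and 2.37, 1.9 and 1.93 in TKO libraries (log2 difference −2.47, SE 0.15, limma adjusted p = 1.31e-18). Klrc2, a receptor gene of natural killer cells (chr6:129624459-129637652), had 2.24, 3.16 and 3.38 against 0.557, 0.42 and 0.643 (−2.24). Caln1, a neuronal calcium-binding protein gene that touches 479 bins, had 132, 156 and 128 against 45.4, 52.3 and 42.7 (−1.57). All 3 were lower in each TKO library, which the rule that chose them required. Vmn2r21, a pheromone receptor gene, fell by 1.84 on the log2 scale, Acsm2, a fatty acid activating enzyme gene of kidney and liver, by 1.84, Rgs5, a regulator of G protein signalling, by 1.67, Abca8a, a lipid transporter gene, by 1.67, and Slco1a1, a liver organic anion transporter gene, by 1.60. The alpha-defensin gene Defa30 and 1700034J05Rik fell by 1.85 and 1.75, and IGG per bin was 0.149 and 0.119 of the median there. IGG background per bin was under 0.5 of the median in 936 (6.15%) of the 15226 genes. A gene model here that is longer than the one behind the values and reads that map poorly would both lower it, and they cannot be told apart. IGG per bin was 0.615 of the median at Pramel33 and 0.548 at Klrc2, both members of families of near-identical copies, where reads that map to several copies may be divided among them.

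**Figure D2:**
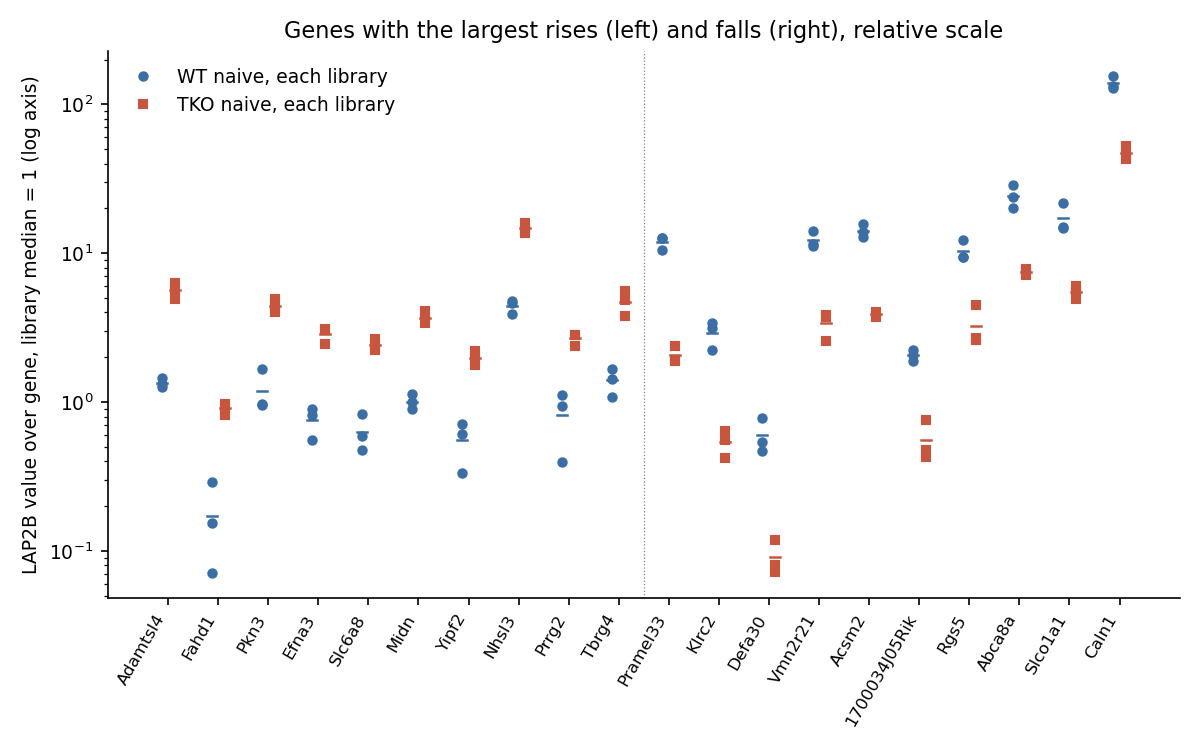
LAP2B value over each gene with the library median gene set to 1 (y axis, log scale) for the 10 genes with the largest rises and the 10 with the largest falls on the relative scale, at most 1 per family and 1 per 1 Mb. Points are single libraries, WT and TKO. The TKO libraries lie on one side of the WT libraries at every gene because the genes were chosen so.

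Most members of several clustered receptor and defence families were called lower on the relative scale. Neighbouring members share chromatin and often near-identical sequence, so their counts are not independent. Of the 1111 olfactory receptor genes tested, the largest gene family of the mouse, 785 were called lower and 5 higher on the relative scale, with a median of −0.78 (−1.34 on the spike-in scale), beside 28.0% lower and 21.7% higher among all genes. Vomeronasal type 1 and type 2 receptor genes, which detect pheromones, had medians of −0.72 (98 lower and 1 higher of 147) and −0.87 (103 lower and 0 higher of 113). Bitter taste receptor genes had a median of −0.79 (25 lower and 0 higher of 39). Or1e17, an odorant receptor gene, had 2.09, 2.16 and 1.65 in WT and 0.247, 0.4 and 1.01 in TKO libraries, and Vmn1r50 had 2.06, 2.75 and 2.68 against 0.99, 0.58 and 0.845. Tas2r114 had 0.778, 1.18 and 0.769 against 0.268, 0.12 and 0.321. Groups did not overlap at any of these 3 genes, as at 51.1% of all genes. Members were named as the largest called change of a family or the one nearest its median. Olfactory receptor clusters were not alike: all 25 genes tested on chromosome 6 were called lower (median −0.89), but 3 of 15 on chromosome 13 (median −0.05), 8 of 25 on chromosome 4 (median −0.24), 1 of 10 on chromosome 15 (median −0.16) and 1 of 5 on chromosome 8 (median −0.04). Trace amine receptor genes, which also detect odours, had a median of −0.39, but 2 of 16 were called lower (12.5%, under the 28.0% of all genes) and 0 higher.

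The Pramel genes had a median of −1.29 over 64 genes (55 lower and 1 higher; −1.86 on the spike-in scale). It was the lowest of the families measured, but not over genes of at least 10 bins alone, where the medians were −0.88 for 27 Pramel genes, −0.93 for organic anion transporter genes and −1.02 for 20 killer cell lectin-like receptor genes. All 29 members tested on chromosome 5 between positions 93629688 and 95952089 were called lower, with a median of −1.91 and a range of −2.77 to −1.34. On chromosome 4, 22 of 27 were called lower, with a median of −0.88. Pramel59, a pseudogene of the chromosome 5 cluster, had 0.644, 1.38 and 0.862 in WT and 0.0619, 0.04 and 0.0476 in TKO libraries, the lower end of the range. The member that went the other way was Pramel6, a gene of the early embryo on chromosome 2, with 2.23, 2.45 and 2.48 in WT and 4.3, 2.88 and 4.27 in TKO libraries. Its rise (log2 difference 0.63, limma adjusted p = 0.0093) was no longer called without TKO replicate 1 or without TKO replicate 3, at 0.54 each. The median member of the family lay in LMNB1 class 8, against class 9 for the olfactory receptors.

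Killer cell lectin-like receptor genes, whose products steer natural killer cells, had a median of −1.17 (21 lower and 1 higher of 23, all on chromosome 6). Klra7 fell from 4.86, 7.77 and 5.18 in WT to 2.93, 2.0 and 2.74 in TKO libraries, while Klrg2, some distance from the main cluster and in LMNB1 class 2, rose from 1.72, 1.45 and 1.88 to 3.39, 3.26 and 3.1. Prolactin family genes, hormones of pituitary and placenta, had a median of −0.98 (17 lower and 0 higher of 23), organic anion transporter genes one of −0.99 (14 lower and 0 higher of 18), and serpins of the A and B groups, protease inhibitors, one of −0.86 (50 lower and 0 higher of 58). Prl7b1 fell by 1.5, Slco6c1 by 0.96 and Serpinb3a by 1.68. Defensin genes had a median of −0.69 (47 lower and 0 higher of 84). The 65 of them on chromosome 8 had a median of −0.80, with 44 called lower, and Defa20 there fell by 2.08. The 11 on chromosome 2 had a median of 0.19, with 1 called lower, and the 5 on chromosome 14 one of 0.05, with 0 called lower. Over genes of at least 10 bins alone the prolactin family had a median of −0.65 (9 genes) and the defensins one of −0.48 (9 genes). None of these families changed the sign of its median when libraries were divided by their mean.

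Very long neuronal genes, a list of receptors, adhesion molecules and channels, had a median of −0.88 (42 lower and 1 higher of 43). Their spike-in median was −1.5, with 42 lower. The 97.7% called lower on the relative scale stand beside 28.0% of all genes and 85.3% of the 639 genes of over 300 bins, whose median was −0.77. The list was not matched to other long genes, so these values do not set neuronal genes apart from long genes. Grm7, a metabotropic glutamate receptor gene of 923 bins, had 286, 354 and 270 in WT and 131, 112 and 131 in TKO libraries. Ptprd, a neuronal adhesion receptor gene of 2272 bins, had 532, 663 and 509 against 323, 267 and 336. Every TKO library was below every WT library at both, as at 29.5% of all genes and at 552 of the 639 genes of over 300 bins. The gene called higher was Park7, an antioxidant protein gene that touches 18 bins and so is no long gene despite the list's name (log2 difference 0.95).

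Several families had relative medians above 0, with few members called lower. Replication-dependent histone genes, short genes that are copied into RNA in S phase, had a median of 1.16 (21 higher and 0 lower of 24 tested). The filter on low values removed 44 of the 68, so the count is not over all members. That filter used the mean over all LAP2B libraries, TKO included. A gene low in WT could thus pass through its TKO values, which favours rises in this count and median. On the spike-in scale the histone genes tested had a median of 0.68, with 9 called higher. Only 1 of them touches at least 10 bins. H2ac11 had 0.333, 0.143 and 0.277 in WT and 1.31, 0.9 and 1.51 in TKO libraries, and H3c1 had 0.133, 0.143 and 0.4 against 0.67, 0.7 and 0.44. The groups did not overlap at either gene, although narrowly for H3c1, and 51.1% of all genes showed no overlap. Ribosomal protein genes had a median of 0.73 (64 higher and 1 lower of 83) and 0.18 on the spike-in scale. Rps26 had 0.567, 0.107 and 0.369 against 0.763, 1.34 and 1.18. Small nucleolar RNAs guide RNA modification, and the 129 tested genes with a Snora or Snord symbol had a median of 0.59 (55 higher and 1 lower). They are a subset: all 1116 genes of this biotype had a median of −0.19 (129 higher and 212 lower), which changed sign when libraries were divided by their mean. Snora5c, with a log2 difference of 1.41, lies within Tbrg4, so its single bin is also part of that gene's value. Mitochondrial ribosomal protein genes, proteasome subunits, subunits of NADH dehydrogenase and translation initiation factors had relative medians of 0.43, 0.39, 0.48 and 0.32 but spike-in medians of −0.14, −0.22, −0.06 and −0.29. On the relative scale 50.7%, 60.5%, 50% and 49.3% of their members were called higher, beside 21.7% of all genes and 37.2% of protein-coding genes. Over genes of at least 10 bins alone the relative medians were 0.23, 0.33, 0.33 and 0.38.

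Families of regulators were mixed. The 39 Hox genes, which set position along the body axis and are silent in stem cells, had a median of 0.60 (24 higher and 0 lower) and of 0.10 on the spike-in scale. The cluster on chromosome 15 had the highest median, 0.99, and Hoxc13 there had 0.822, 0.679 and 0.662 in WT and 2.05, 1.96 and 2.4 in TKO libraries. The cluster on chromosome 6 had a median of 0.35, with 4 of 11 called. Numbered zinc finger genes, many of which encode repressors of TEs, had a relative median of 0.22 (145 higher and 64 lower of 355) and a spike-in median of −0.38. Their shares were 40.8% higher and 18.0% lower, beside 37.2% and 28.1% of protein-coding genes. Zfp296, a zinc finger gene used by stem cells, rose by 1.80, and Zfp422 fell by 1.15. The 964 microRNA genes with a numbered Mir symbol, a subset of the biotype above, had a median of 0.25 (221 higher and 83 lower). The 22.9% called higher are close to the 21.7% of all genes. Over the 9 that touch at least 10 bins the median was −0.28. Mir1199 stood at 1.72 and Mir29b-2 at −1.47. Clustered protocadherins and potassium channels had medians of −0.01 and −0.05 that changed sign when libraries were divided by their mean, with 22 and 26 genes called higher and 16 and 26 lower. These are 37.9% and 31.3% higher and 27.6% and 31.3% lower, near the shares of protein-coding genes. Over the protocadherin genes of at least 10 bins alone the median was 0.88.

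**Figure D3:**
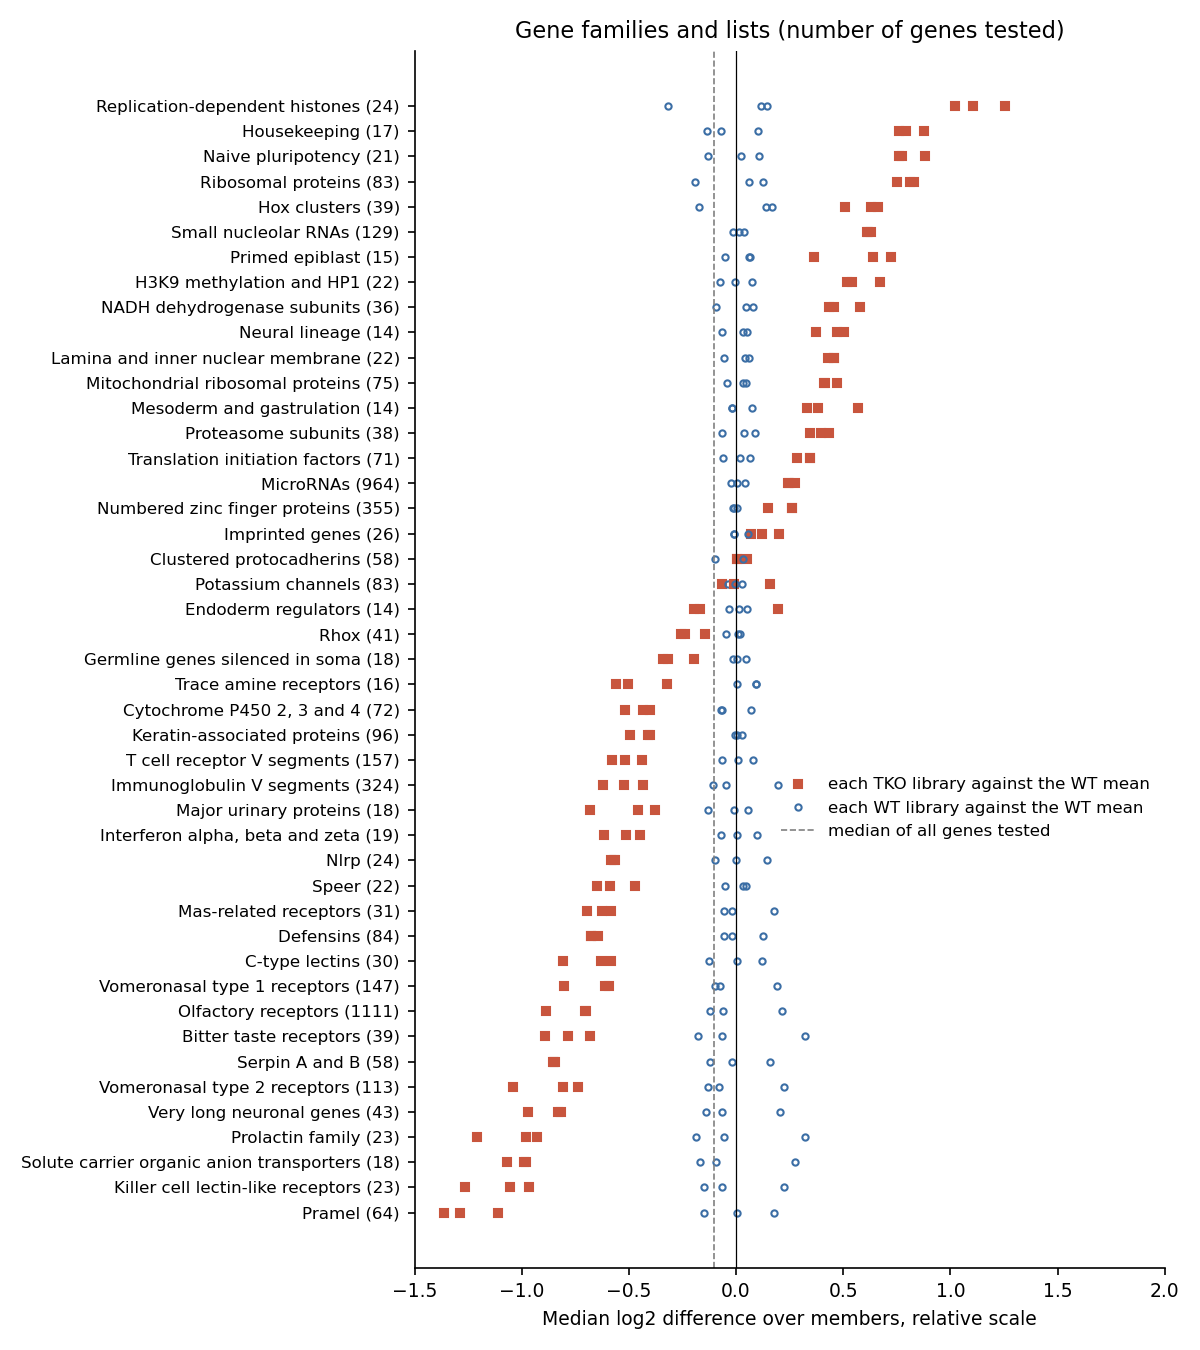
Median log2 difference over the members of each gene family or list on the relative scale (x axis), for each TKO library and each WT library against the WT mean. The number of genes tested is in parentheses, and the dashed line is the median of all genes tested. Histone, housekeeping, pluripotency and ribosomal protein genes lie furthest right, Pramel and killer cell lectin-like receptor genes furthest left. The histone genes drawn are only those that passed the filter on low values, which can favour rises.

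Most genes of the stem cell state were called higher on the relative scale. Of 21 naive pluripotency genes, 15 were called higher and 0 lower, with a median of 0.82, and on the spike-in scale the median was 0.22 with 3 called higher and 3 lower. Klf2, a transcription factor of the naive network on chromosome 8, had 0.811, 0.5 and 0.846 in WT and 2.16, 2.7 and 2.19 in TKO libraries. Sall4, a zinc finger factor of the same network, had 2.78, 1.98 and 2.98 against 4.39, 4.04 and 5.37. The groups did not overlap at Klf2 or Sall4, as at 51.1% of all genes. Housekeeping genes had a median of 0.85 (14 higher and 1 lower of 17), and Ppia, a cyclophilin gene, rose by 1.65. Genes of the primed epiblast had a median of 0.57 (10 higher and 2 lower of 15), with the ligand gene Nodal at 1.63 and Cer1, a secreted antagonist of Nodal, at −1.12. Over genes of at least 10 bins alone the median of the primed epiblast list was 0.23 (8 genes). Genes of mesoderm and gastrulation and of the neural lineage had medians of 0.42 (5 higher and 1 lower of 14) and 0.46 (6 higher and 1 lower of 14), with the growth factor gene Fgf8 at 1.52 and the intermediate filament gene Nes at 1.55. Over genes of at least 10 bins alone those medians were 0.07 (2 genes) and 0.17 (4 genes). Endoderm regulators (1 higher and 5 lower of 14) and germline genes silenced in somatic cells (5 higher and 7 lower of 18) had medians of −0.06 and −0.28 that changed sign when libraries were divided by their mean. The shares called lower were 35.7% and 38.9%, beside 28.0% of all genes, and the shares called higher were 7.14% and 27.8%, beside 21.7%. The endoderm median was −0.41 over the 9 genes of at least 10 bins. Foxa1, a pioneer factor of endoderm, stood at 0.78, Afp, a fetal serum protein gene, at −0.97 and Sycp2, a meiotic chromosome axis gene, at −1.03. Imprinted genes had a median of 0.19 (9 higher and 4 lower of 26, or 34.6% and 15.4%), with Snrpn at −0.69. By contrast 71.4% of the naive pluripotency genes and 82.4% of the housekeeping genes were called higher. The mesoderm and neural shares called higher, 35.7% and 42.9%, rest on 14 genes each. Among all protein-coding genes 37.2% were called higher and 28.1% lower, so the imprinted and mesoderm shares called higher lie below that base.

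Genes for the lamina itself were described as chromatin, since these values hold no RNA. The list of lamina and inner nuclear membrane genes had a median of 0.44 (11 higher and 3 lower of 22), and that of H3K9 methylation and HP1 one of 0.57 (14 higher and 3 lower of 22). Their spike-in medians were −0.17 and −0.04, and over genes of at least 10 bins alone the relative median of the lamina list was 0.28. The counts of both lists stand beside 37.2% called higher and 28.1% lower among all protein-coding genes. Each list holds only 22 genes, and whether its shares differ from that base was not tested. Lmna, which encodes the A-type lamins, had 7.64, 3.27 and 5.63 in WT and 29.6, 8.6 and 7.7 in TKO libraries. The groups did not overlap, but TKO replicate 1 stood far above the other libraries. The log2 difference was 1.25 (SE 0.24, limma adjusted p = 1.91e-05), and 0.63 without that library. On the spike-in scale it was 0.64 (adjusted p = 0.0179), and 0.17 and no longer called without it. That call was also lost without WT replicate 2 (0.43), with only the 6 naive libraries in the model (0.64), with no filter on low values (0.64) and when reads themselves were multiplied by the spike-in factor (0.41). Lmnb2, a B-type lamin gene, rose by 0.78 on the relative scale and stood at 0.19 on the spike-in scale (limma adjusted p = 0.569). Lmnb1 did not pass the test on the relative scale (0.014, limma adjusted p = 0.93; WT 10.5, 9.55 and 9.4, TKO 11, 8.66 and 10.2), nor did Lbr (0.27, adjusted p = 0.0943) or Tmpo (0.19, adjusted p = 0.167). These depended on the processing: all 3 were called higher when libraries were divided by their mean, Lmnb1 at 0.34, Lbr at 0.59 and Tmpo at 0.52, and Lbr also without TKO replicate 2 or without WT replicate 3, at 0.39 each, and with only genes of at least 10 bins, at 0.28. On the spike-in scale Lmnb1 fell by 0.60 (limma adjusted p = 0.0253), but was not called without TKO replicate 1 (−0.52), TKO replicate 3 (−0.58) or WT replicate 2 (−0.49), or with only the 6 naive libraries (−0.60). How the lamin alleles were disrupted bears on coverage over these genes and was not tested. Elsewhere in the lists, Nrm, an inner membrane protein gene, rose by 1.60 and Syne1, the gene of a giant protein that links nucleus and cytoskeleton, fell by 0.74. Kdm4b, an H3K9 demethylase gene, rose by 1.41 and Setdb2, an H3K9 methyltransferase-like gene, fell by 0.80.

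Some genes went against the LMNB1 gradient. Of 2706 protein-coding genes of at least 10 bins in LMNB1 group 4, 118 (4.36%) were called higher, and 31 of these lay on chromosome 8. That is 14.5% of the 214 genes of chromosome 8 in this set and 3.49% of the others. With groups by the ratio of LMNB1 to IGG instead, 62 of 2829 genes (2.19%) in group 4 were called higher, 2 of the 81 on chromosome 8 (2.47%) and 2.18% of the others, so the excess on chromosome 8 depends on the ranking. Gm49320 on chromosome 8 had 3.51, 3.23 and 3.38 in WT and 9.34, 9.3 and 10.5 in TKO libraries, with Tmem38a, an ion channel gene of internal membranes, Mcm5, a subunit gene of the replicative helicase, and Zfp42, a marker gene of naive cells also called Rex1, on the same chromosome at 1.00, 0.99 and 0.96. Wdr38 on chromosome 2 had 1.86, 1.84 and 2.15 against 4.93, 4.08 and 5.46. Of 4484 such genes in LMNB1 group 1, 72 (1.61%) were called lower, and 14 of 4529 (0.309%) in group 1 by the ratio to IGG. Chromosome 8 holds 56 of the 4484 genes, too few to compare, with 0 called lower beside 1.63% of the others. Among them were Spmip5 (−0.97), Cfap144 (−0.85), Bpifb2 (−0.79) and Sp100, a nuclear body protein gene with 6.21, 7.38 and 7.54 in WT and 4.12, 4.08 and 4.06 in TKO libraries.

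Chromosome 8 was examined since the TKO line is described as trisomic for it. The log2 ratio of its median gene to that of other autosomes, per bin, was 0.434, 0.384 and 0.459 in WT and 0.524, 0.57 and 0.499 in TKO libraries, a difference of 0.11 without overlap (exact permutation p = 0.1, adjusted over 21 chromosomes 0.131). In LMNB1 group 1 the difference was −0.04 (exact p = 0.5), and in group 4 it was 0.21 (exact p = 0.1). The whole-chromosome differences of chromosomes 11 and 17 were 0.33 each and that of chromosome 6 was −0.29, but these values are not matched for LMNB1. Within LMNB1 groups, the median difference of chromosome 8 genes, less that of other autosomes, was −0.05, 0.25, 0.43 and 0.15 from group 1 to group 4, and on chromosome 11 it was 0.2, 0.13, 0.04 and 0.01. These groups do not match chromosome 8 to the other autosomes, since its genes also had more WT LMNB1 and IGG per bin, by 0.39 and 0.55 at the median on a log2 scale. The LMNB1 ranking put 43 of its genes in class 1 and 856 in class 10, while the ratio of LMNB1 to IGG put 325 and 208 there. Within groups by that ratio, a ranking chosen after the data were seen, chromosome 8 stood at 0.03, 0.02, 0.01 and −0.02 and chromosome 11 at 0.1, 0.04, −0.05 and −0.02. The difference of the chromosome 8 level was −0.01 in group 1 and in group 4 by the ratio (exact p = 0.8 each), so no excess of chromosome 8 was seen there. The Y chromosome differed by −0.49 (WT −1.44, −1.4 and −1.368, TKO −1.833, −2.0 and −1.842). On chromosome 17 the values were 0.28, 0.21, 0.13 and 0.19 within LMNB1 groups and 0.23, 0.14, 0.1 and 0.15 within groups by the ratio. On chromosome 6, of which part of the WT cells are described as trisomic, they were −0.38, −0.05, −0.03 and −0.06 within LMNB1 groups. Within groups by the ratio they were −0.33, −0.07, −0.1 and −0.09 there. On the X chromosome, where WT IGG per bin differed from other autosomes by −1.1 on the log2 scale, they were −0.26, −0.47, −0.15 and 0.47 within LMNB1 groups, of which group 4 held 75 of 2124 genes, and 0.07, 0.31, 0.2 and 0.26 within groups by the ratio. WT IGG per bin, 0.55 above other autosomes on chromosome 8, differed by 0.11 on chromosome 11 and 0.05 on chromosome 17. Whether the WT libraries also held extra copies of chromosome 8 was not tested. Copy number was not measured in either genotype, and a change of it cannot be told apart from a change of LAP2B contact on a chromosome.

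**Figure D4:**
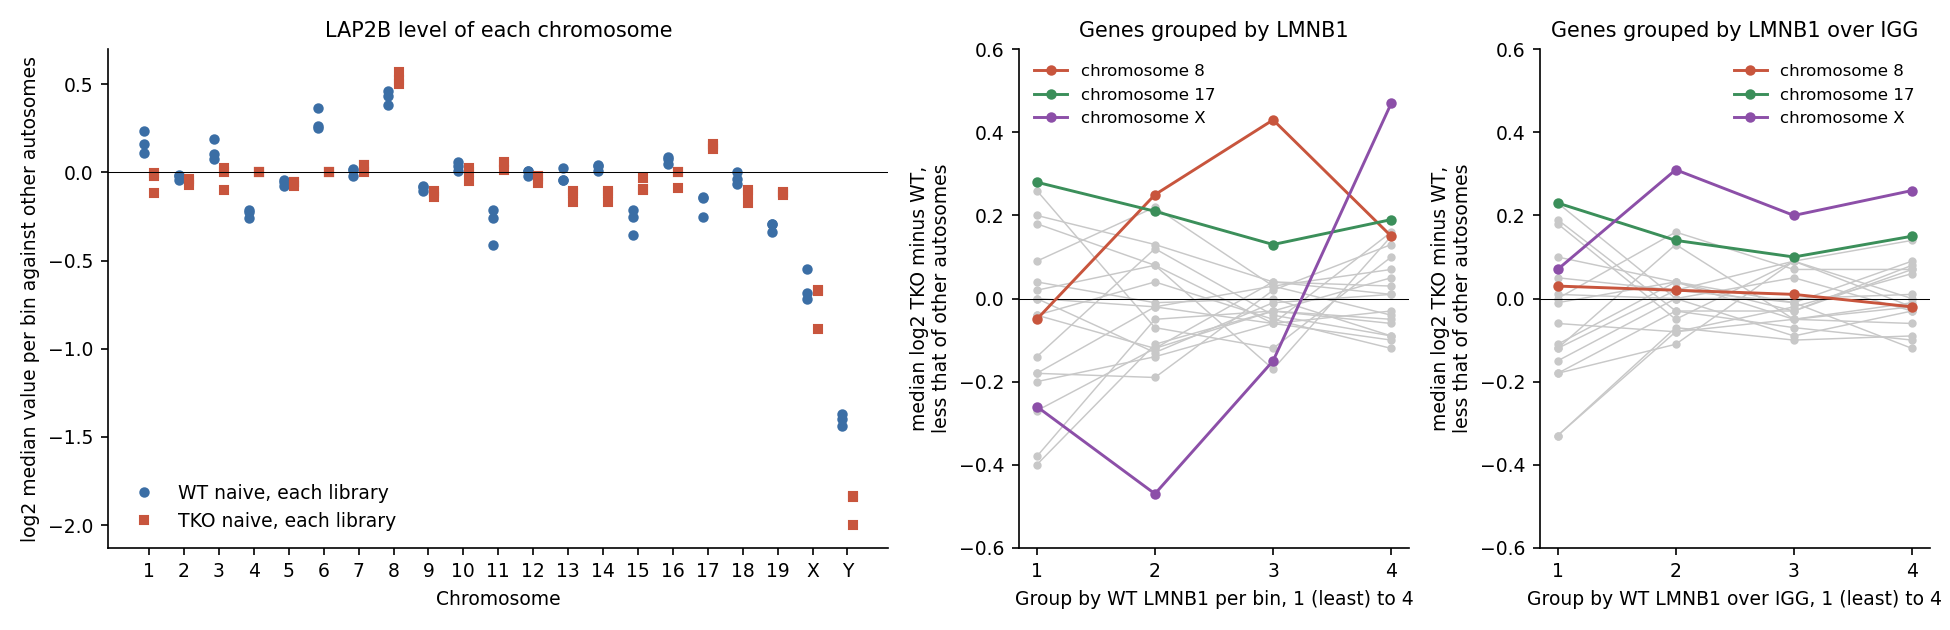
Left, log2 median LAP2B value per bin of each chromosome against that of the other autosomes (y axis) in every library. Middle and right, median log2 difference of TKO and WT for the genes of each chromosome, less that of other autosomes (y axis), by group of WT LMNB1 per bin or of WT LMNB1 over IGG, from 1 (least) to 4 (x axis), with grey lines for chromosomes not named. Left, chromosomes 6 and 11 part the genotypes more than chromosome 8 does, without matching for LMNB1. Middle, chromosome 8 reaches 0.43 in group 3 and chromosome X 0.47 in group 4, which holds 75 X genes. Right, chromosome 8 lies between −0.02 and 0.03.

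Values were also summarised along the genome, with no test of whether neighbouring genes moved together. Of 2552 windows of 1 Mb with at least 5 genes tested, 666 had a median relative difference above 0 and 1886 below, and 169 had a spike-in median above 0. The lowest window, on chromosome 5 from 95000001 to 96000000, had a median of −1.89 with 28 of 28 genes called lower and lies in the Pramel cluster. The highest, on chromosome 9 from 21000001 to 22000000, had a median of 1.16 with 64 of 67 genes called higher, and holds Epor, the erythropoietin receptor gene. A window on chromosome 8 from 113000001 to 114000000, around the neuronal adhesion gene Cntnap4, had a median of −1.44 with 11 of 11 genes called lower.

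Over TEs the fall on the spike-in scale was nearly uniform. Of 1168 families of at least 20 copies, 1162 (99.5%) were called lower in TKO cells by limma and 1 (0.0856%) higher, 99.6% in all, with a median difference of −1.01. On the relative scale, with each library divided by its median family, 393 (33.6%) were called higher and 252 (21.6%) lower, 55.2% in all. The TKO libraries did not overlap the WT libraries at 59.4% of families on the relative and 98.8% on the spike-in scale. SINEs, short elements copied by the machinery of LINEs, stood out: 33 of 34 families were called higher and 0 lower, with a median of 0.32. On the spike-in scale all 34 were called lower, with a median of −0.70, so they fell less than the median family. The median gene stood at −0.62 there, so relative values of genes and of TE families have different zero points. The median relative level of SINE families was 0.801, 0.75 and 0.825 in WT and 1.02 in each of the 3 TKO libraries. LINEs, long autonomous retrotransposons, had a median of −0.08 with 92 of 191 families called lower and 26 higher. The log2 ratio of the SINE to the LINE median was −0.244, −0.377 and −0.209 in WT and 0.137, 0.148 and 0.131 in TKO libraries, a difference of 0.42 (exact permutation p = 0.1). This order did not depend on the scale, since it is a ratio within a library. The counts did: with libraries divided by their mean family, which the major satellite GSAT_MM dominates, 2 SINE families were called higher and 1 lower with a median of 0.05, and 12 of all families were called higher and 813 lower. Counts also fell with the median over copies in place of the mean, to 165 of all families higher and 63 lower. In that setting 33 SINE families were called higher and 0 lower, and 7 LINE families higher and 30 lower.

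Within these classes, B2 and Alu (B1-related) families had medians of 0.39 each, with 5 of 5 and 15 of 15 called higher, and MIR families, an old group, had 0.17. B2_Mm2, with 87172 copies, had 0.762, 0.711 and 0.797 in WT and 1.03, 1.02 and 1.03 in TKO libraries. B1_Mm, with 42468 copies, had 0.83, 0.795 and 0.853 against 1.05, 1.02 and 1.05. Among L1 elements the rodent Lx and L1Lx families had a median of −0.19 (24 lower and 0 higher of 25), the mouse L1Md families one of −0.18 (20 lower and 1 higher of 25), and the older L1M families one of −0.03. Lx had 1.46, 1.56 and 1.43 in WT and 1.28, 1.18 and 1.31 in TKO libraries. LTR elements, the relics of retroviruses, were mixed. Of 615 LTR families 259 were called higher and 90 lower, but 99 and 16 with the median over copies in place of the mean. In group 4 of 4 groups of families by LMNB1, that with most, LINE families had a median of −0.18 (54 lower and 1 higher of 62), while LTR families had one of 0.06 (30 lower and 87 higher of 205), which was below 0 for LTRs as a class when libraries were divided by their mean (−0.24). ERVK families had a median of 0.09 (141 higher and 16 lower of 278) and ERV1 families one of 0.10 (64 higher and 11 lower of 116), at −0.19 and −0.17 with division by the mean. ERVL families had a median of −0.04 (20 higher and 40 lower of 115), Gypsy families one of −0.05 (3 higher and 6 lower of 24) and the group named LTR one of −0.08 (3 higher and 7 lower of 17). Over all families 33.6% were called higher and 21.6% lower, the latter close to the share of Gypsy families. With the median over copies in place of the mean, 7 ERVL families were called higher and 5 lower. Of 65 ERVL-MaLR families 28 were called higher and 10 lower. All 9 LTRIS families were called higher (median 0.25).

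**Figure D5:**
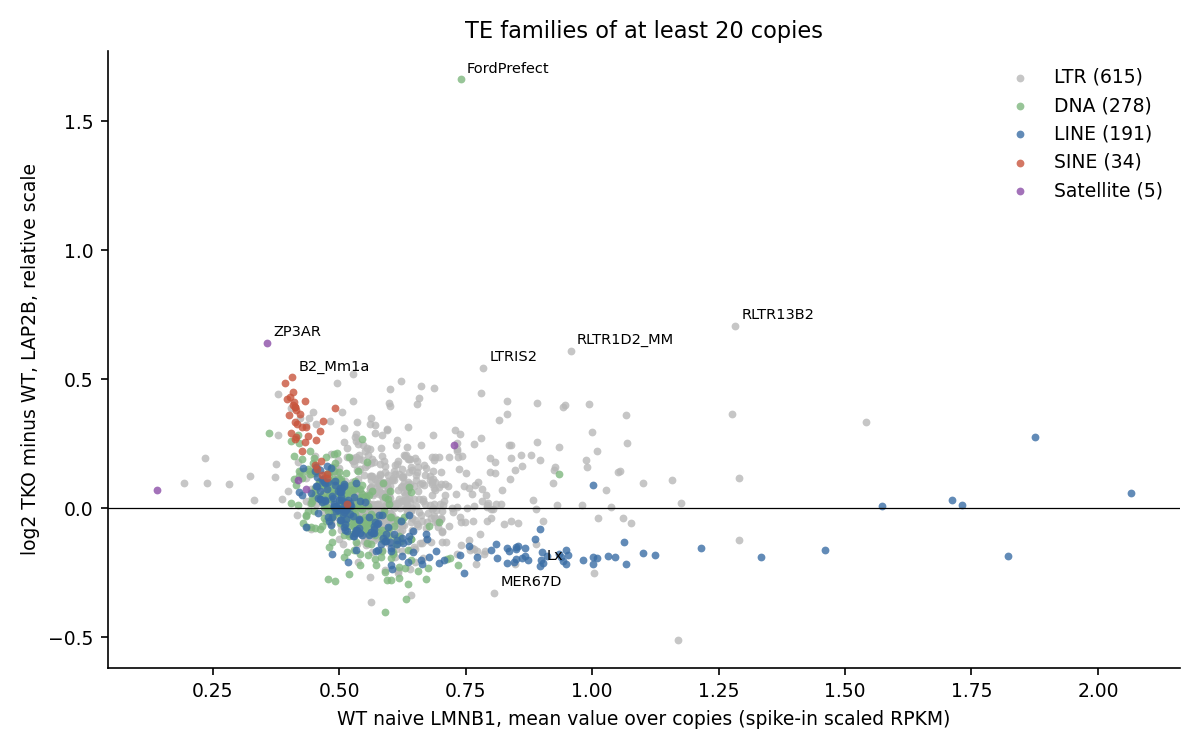
Log2 difference of TKO and WT on the relative scale (y axis) against mean WT naive LMNB1 over copies (x axis) for TE families of at least 20 copies, coloured by class. SINEs lie at low LMNB1 and above 0, LINEs slope down as LMNB1 rises, and LTR families spread to both sides. The 3 families with LMNB1 of 3 or more (GSAT_MM, SYNREP_MM and Tigger17d) and the 42 families of other classes are left out, so 1123 are drawn.

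Single families differed in size of change. RLTR13B2, an ERVK long terminal repeat with 312 copies, had 2.44, 2.28 and 2.46 in WT and 4.44, 3.48 and 4.05 in TKO libraries (log2 difference 0.71, SE 0.073, limma adjusted p = 4.49e-07). RLTR1D2_MM, LTRIS2 and RLTR4_Mm, all ERV1 elements, rose by 0.61, 0.54 and 0.52, RMER16B2 by 0.49, the SINE B2_Mm1a by 0.51 and the satellite ZP3AR by 0.64. IAPEz-int, the internal part of the most active mouse retrovirus family, had 2.05, 1.7 and 2.28 against 2.56, 2.7 and 2.68 (0.39), and was not called when libraries were divided by their mean (0.10). All of these were lower or not called on the spike-in scale, with B2_Mm1a at −0.52 and IAPEz-int at −0.70. FordPrefect, a DNA transposon family of 270 copies, had 1.38, 1.38 and 1.52 in WT and 4.16, 5.37 and 4.77 in TKO libraries (1.66), and was the family called higher on the spike-in scale (0.56, limma adjusted p = 0.0163; not called without TKO replicate 2 at 0.28 or without WT replicate 1 at 0.42). Its IGG value, 1.27, exceeded its LMNB1 value, 0.74, and with the median over copies in place of the mean the difference was −0.03 on the relative and −1.07 on the spike-in scale, so the mean is set by a part of the copies. GSAT_MM, the major satellite, had 759, 632 and 1000 in WT and 1100, 1430 and 1090 in TKO libraries (0.61, limma adjusted p = 0.0184). Its WT IGG value was 189 beside an LMNB1 value of 288, so background was high there too. GSAT_MM was no longer called without TKO replicate 2 (0.48) or WT replicate 2 (0.46), with only the 6 naive libraries in the model (0.61) or with the median over copies (0.33). Falls were smaller, and among families of at least 100 copies MER67D fell by 0.33, MER89-int and SRV_MM-int by 0.25 each, Eulor8 and MER110 by 0.24 each, UCON26 by 0.23, and Lx and L1M3de by 0.22 each. WT IGG was 0.0994 to 0.166 at these falling families. It was 0.221 at RLTR13B2, 0.213 at RLTR1D2_MM, 0.181 at LTRIS2, 0.162 at RLTR4_Mm and 0.185 at RMER16B2. At IAPEz-int it was 0.32, at B2_Mm1a 0.134 and at ZP3AR 0.141. How much background adds to the relative rises was not tested.

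The same contrast in EpiLCs, from 6 other libraries, served to show what differed in naive cells. Of the 15266 genes with coordinates called higher in naive TKO cells, 3848 (25.2%) were called higher in TKO EpiLCs and 20 lower, beside 7.51% higher and 10.7% lower in EpiLCs among all 70312 genes with coordinates. Those 3848 were 72.9% of the genes called higher in EpiLCs. Of the 19671 called lower, 6531 (33.2%) were also called lower in EpiLCs, which is 86.7% of the EpiLC calls, and 50 were called higher. The median difference of the naive rises was 0.78 in naive cells and 0.32 in EpiLCs, and that of the naive falls −0.82 and −0.36, where the naive values chose the genes. The test of the difference between stages called 6626 genes (9.41%), but 3857 without TKO EpiLC replicate 3, 4239 without WT EpiLC replicate 3 and 4248 without WT naive replicate 2. Naive and EpiLC WT cells differ in their own LAP2B map, and how much of the difference comes from WT was not tested. In WT EpiLCs the study found LAP2B signal both inside and outside LADs, and it did not use LAP2B to stand for LADs there. Whether a smaller difference in EpiLCs is a smaller effect of lamin loss was not tested. Killer cell lectin-like receptor genes had medians of −1.17 and −0.98 and L1Md families −0.18 and −0.17 in naive cells and EpiLCs, while naive pluripotency genes had 0.82 and 0.19 and histone genes 1.16 and 0.34.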

How the data were processed

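LAP2B CUT&RUN was analysed in 3 TKO and 3 WT naive libraries, with WT naive LMNB1 and IGG to rank genes and the 18 other LAP2B libraries in the model. Read pairs were aligned to GRCm39 by the authors with Bowtie2 2.3.5.1, filtered with SAMtools 1.10 and turned with deepTools into RPKM coverage scaled by yeast spike-in reads, with blacklisted regions left out for genes and kept for TEs. The deposited values are this coverage signal, summed over the bins that a gene or TE copy touches and not divided by length. Bins of 1 kb are clear for genes. For TEs the methods name wider bins, while the values look like bins of 1 kb, so the width is uncertain and a copy's value includes flanking chromatin. Whole reads were recovered from the gene values (100.0% within 0.05 of a step).

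Genes were placed with GENCODE on GRCm39 in a later release than the methods name. The lowest 0.1 of genes by mean over all 24 LAP2B libraries were left out (70381 of 78202 tested). Each TE family was represented by the mean of its copies (1168 of 1225, 3793386 copies in all). log2(value + 0.1 of the median) was fitted with limma 3.58.1 (R 4.3.3, trend) as 8 group means over 24 libraries, contrast TKO minus WT, two-sided, with Benjamini-Hochberg adjustment over all features and calls under 0.05. Fold changes are on that scale and understate those of low features. Measures with 1 value per library had two-sided exact permutation tests. The code was tested on simulated data, where fold changes came back with little bias and the test was liberal: the share of false calls was above the nominal rate in every run, so adjusted p-values and counts of calls are optimistic. The limits of this check were reset after its first values were seen. edgeR 4.0.16 on recovered reads was added after the data were seen. Columns of the authors' own TE z scores were not used.

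The members, gene families and lists were chosen with earlier results of these data known, some by hand from an earlier analysis. Genes named are the 10 largest relative rises and falls among protein-coding genes of at least 10 bins that were called and did not overlap (1 per family and per 1 Mb), the 5 largest spike-in rises, the 8 largest rises and falls among TE families of at least 100 copies, lamina genes, and up to 4 members of each family or list. Klra7, Klrg2 and others of a family follow this rule. B1_Mm, B2_Mm2, GSAT_MM, IAPEz-int and Lx9 and the examples against the LMNB1 gradient, the latter only where IGG per bin is at least 0.5 of the median, were chosen after their values were seen.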

Additional observations from a re-analysis of the deposited data

Results flagged for a closer look

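The TKO minus WT contrast in LAP2B coverage differed between stages, by limma's interaction contrast (EpiLC minus naive, relative scale, adjusted p under 0.05), at 6626 genes and 213 TE families. The gene count was 3857 without TKO EpiLC replicate 3, 4239 without WT EpiLC replicate 3 and 4248 without WT naive replicate 2. The difference between stages was −1.48 for Adamtsl4, −1.44 for Fahd1, −1.53 for Pkn3, −1.27 for Efna3, −1.25 for Slc6a8, −1.47 for Midn, −1.62 for Yipf2, −1.30 for Nhsl3, −0.97 for Prrg2 and −1.17 for Tbrg4. Among the leading falls it was 1.24 for Acsm2, 1.46 for 1700034J05Rik, 1.14 for Rgs5, 0.84 for Abca8a, 0.63 for Slco1a1 and 1.09 for Caln1, while Pramel33, Klrc2, Defa30 and Vmn2r21 were not called different. Among TE families it was −1.0 for FordPrefect, −0.83 for RLTR13B2, −0.41 for RLTR1D2_MM, −0.55 for LTRIS2, −0.38 for RLTR4_Mm, −0.22 for B2_Mm1a and −0.41 for RMER16B2. These genes and families were named for their size in naive cells, so the stage differences listed can be inflated by that choice and their sizes are a description. No outlier test was run within groups of 3 libraries.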

How the results depend on the processing

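Of 135 results for single genes and TE families, 111 kept their direction and their call in every alternative. Over 2097 repeats, 38 lost and 14 gained a call and 9 changed direction. Of 1595 repeats of the medians of gene classes, families and lists, 488 moved by more than the SD of the TKO libraries and 50 changed sign, led by division by the mean (95 of 95 moved, 22 in sign), a pseudocount of 1 times the median (74 of 95, 0 in sign) and genes of at least 10 bins (50 of 76, 8 in sign). Direction changed for Lmnb1 on the relative scale (leaving out 1 library gave −0.06 to 0.11: −0.06 without TKO replicate 1, −0.01 without TKO replicate 3 or WT replicate 2, −0.02 without WT replicate 3 or without the lowest 25% of genes), Lmnb2 on the spike-in scale (leaving out 1 library gave −0.06 to 0.42: −0.06 without TKO replicate 2, −0.04 when reads themselves were multiplied by the spike-in factor), FordPrefect with the median over copies (−0.03 relative, −1.07 spike-in) and the chromosome 8 level in LMNB1 group 1 (−0.04) and in groups 1 and 4 by LMNB1 over IGG (−0.01 each), the latter added after the data were seen. The cause was not tested. Leaving out 1 library at a time gave 25760 to 38757 genes and 1155 to 1167 families on the spike-in scale, 28534 to 34102 genes and 539 to 609 families on the relative scale, and 3857 to 7437 genes different between stages, the lowest without TKO EpiLC replicate 3 (3857), WT EpiLC replicate 3 (4239) or WT naive replicate 2 (4248). With only genes of at least 10 bins, hence fewer tested, 17032 and 19726 genes were called, and with the median over copies 228 families on the relative scale. edgeR on recovered reads called 33782 genes on the spike-in scale and 32505 on the relative scale. Replicate numbers did not pair the samples (same-number correlations −0.0259, −0.108 and −0.0454), and the replicate block gave 33771, 34931, 1163, 636 and 6514 calls for the 2 gene scales, the 2 TE scales and the stages. Depth limits genes of 1 or 2 bins, which have few reads, and intervals for single libraries are not given.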
